A study of Mus musculus with 6 samples.

Results

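Whole-lung RNA was compared between mice in which a dominant-negative BMPR2 had been switched on in smooth muscle for 1 week and control mice. The comparison used 4 of the 6 array samples of the series, chosen by their labels alone: 2 pools activated for 1 week and 2 control pools. Each array held RNA pooled from 3 mice, so the 4 pools stand for 12 mice. The remaining 2 samples, activated for 8 weeks, entered the joint processing of the arrays and the estimate of spread. They are set beside the 1 week values where stated.

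BMPR2 is a type II receptor for bone morphogenetic proteins. After ligand binding it activates type I receptors, which phosphorylate Smad1, Smad5 and Smad9; with Smad4 these switch on target genes such as Id1. Inherited BMPR2 mutations are the best known genetic cause of pulmonary arterial hypertension, in which lung arteries acquire more smooth muscle and matrix. A dominant-negative receptor blocks signalling from the normal copies in the same cell, and the SM22 (Tagln) promoter is active mainly in smooth muscle.

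The 1 week pools, a female and a male one, carried the inducible SM22-dnBMPR2 transgene. According to the series description, the transgenic mice had raised right ventricular pressure when they were killed. The description names mice with the transactivator alone as the controls. The male control pool is labelled SM22-rtTA only, whereas the label of the female control gives just the strain FVB/N, so whether it carried the transactivator is not stated. The strain of the other pools, the ages, the inducing agent and whether control mice received it are not given in the sources used here. Flash-freezing and column extraction are recorded for the transgenic lungs and for neither control. Genotype, any inducer exposure and tissue handling therefore cannot be told apart in this comparison.

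All values below are log2 intensities after quantile normalization, on which a difference of 1 is 2-fold. Each gene is represented by its brightest probe set, the group of oligonucleotides that reports a transcript, and a floor was set at 3.95. Pool values are given with the female pool before the male, and the control pair stands before the word against and the 1 week pair after it; a difference is 1 week minus control of the same sex. Estimates are from limma with a term for sex, as estimate ± standard error, with n = 2 pools a group. The array medians before normalization were 63.41 and 61.43 in the controls and 60.22 and 57.10 in the 1 week pools. Lung transcripts stood near the top of the scale in all 4 pools, with the alveolar type 1 marker Ager at 13.08 and 12.96 in controls and 13.05 and 12.93 after 1 week. The surfactant gene Sftpc was at 13.26 and 13.26 against 13.26 and 13.17, and the club cell gene Scgb1a1 at 13.36 and 13.36 against 13.36 and 13.36, the latter at the same rank on every array. Sex-linked transcripts matched the labelled sex of every pool.

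No probe set differed between 1 week and control after Benjamini-Hochberg adjustment of the limma test (0 of 27022, 0%), and the smallest adjusted p was 0.570. At an unadjusted p below 0.05 there were 1486 probe sets, 819 higher and 667 lower, where 1351.1 would be counted if no gene differed. Under limma with a variance trend and robust moderation 3 probe sets passed, and with 1 averaged value per gene 1 gene passed; both settings named Mndal, described below. The fit has 2 residual degrees of freedom from the arrays and 2.77 from the moderation. Pools of the same sex differ between mice as well as arrays, and the p-values measure only the spread between these pools.

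Since no gene passed, groups are described by whether the pools overlap. Both 1 week pools lay above both controls for 1990 of 13215 genes (15.1%) and below both for 1029 (7.79%). These shares are the background against which each list is read. Which side is larger depends on scaling: higher genes made up 65.9% of the non-overlapping genes here and 41.3% in the values as deposited, where 1223 were higher and 1742 lower, and 77.7% after centring on array medians. The median difference over all genes was 0.03, with 5th and 95th percentiles of -0.27 and 0.44. The female and male differences had opposite signs for 6106 genes, and their Pearson correlation across genes was 0.12, a description over genes that share the same arrays. Their median sizes were 0.15 in females and 0.16 in males, whereas the male and the female control pool differed by a median of 0.26. The 1 week pool was above the control in both sexes for 32.6% of genes and below it in both for 21.1%.

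**Figure D1:**
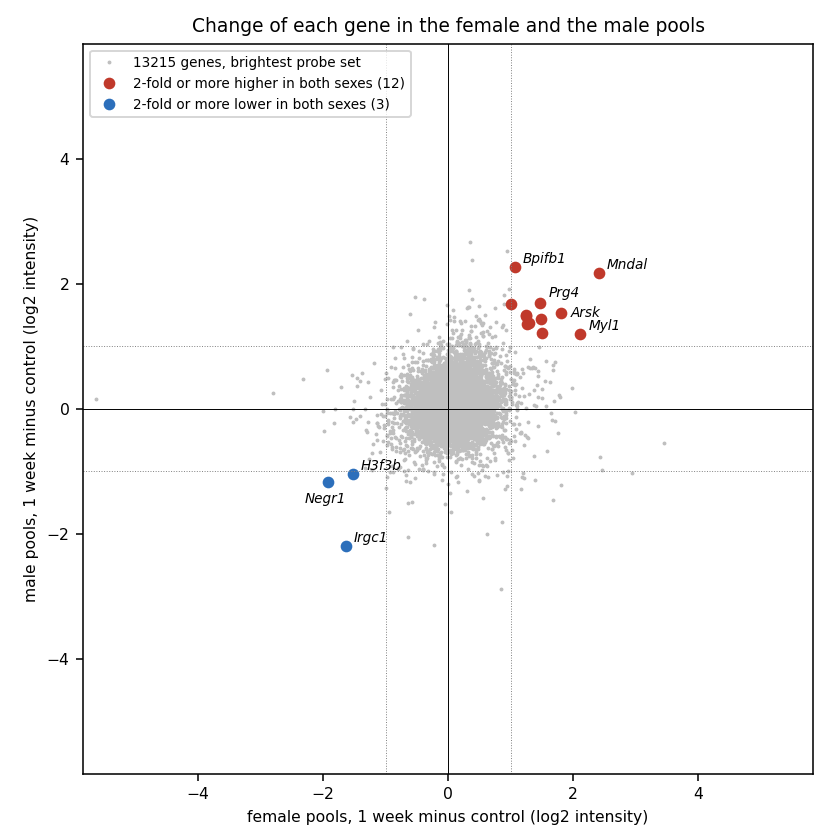
Difference between the 1 week and the control pool (log2 intensity) in females on the horizontal axis and in males on the vertical axis, 1 grey point for each of 13215 genes. The 12 genes higher by 2-fold or more in both sexes are red and the 3 lower ones blue, and dotted lines mark 2-fold.

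Differences of 2-fold or more in both sexes were found for 12 higher genes (0.0908% of those measured) and 3 lower ones (0.0227%). The 12 were Mndal, Bpifb1, Arsk, Myl1, Prg4, Saa3, Fbxo16, Muc5b, Rbp3, Rgs18, Eln and Ube2c. They include airway secretions, matrix, an acute phase protein and a mitotic enzyme. Pools of a group lay close together for Ube2c and Eln. Ube2c, a ubiquitin-conjugating enzyme of the anaphase-promoting complex, was at 5.69 and 5.64 in controls and 6.95 and 6.996 after 1 week (1.31 ± 0.13). Eln, which encodes elastin, was at 9.31 and 9.29 in controls and 10.60 and 10.66 after 1 week (1.33 ± 0.28). For both genes the gap between the groups was many times the difference between sexes within a group. Saa3, an acute phase apolipoprotein, was at 6.15 and 6.45 against 7.63 and 7.89. Prg4, the lubricating proteoglycan lubricin, was at 5.68 and 5.16 against 7.16 and 6.85, and Arsk, a lysosomal sulfatase, at 5.62 and 6.04 against 7.42 and 7.56. Each of these 3 had its groups clearly apart, although Prg4 was dim in the controls.

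Muc5b, a gel-forming airway mucin, stood at 7.60 and 6.61 in the controls and 8.84 and 8.09 after 1 week. Bpifb1, a secreted airway defence protein, was at 9.003 and 7.99 against 10.07 and 10.25. In both genes the control pools differed by sex nearly as much as the smaller of the differences from control, and the estimate for Bpifb1 had a wide error (1.67 ± 1.14). Rgs18, a regulator of G protein signalling in platelets, was at 6.96 and 6.93 against 7.97 and 8.61, the controls nearly equal and both 1 week pools above them. Myl1, a skeletal muscle myosin light chain, was at 4.94 and 6.05 against 7.06 and 7.26. Rbp3, a retinoid-binding protein, stood at 5.34 and 4.72 against 6.85 and 5.93. Fbxo16, an F-box protein, had its female control at the floor, with 3.95 and 5.12 against 5.19 and 6.63. These last 3 were dim, and for Fbxo16 the 1 week female pool lay just above the male control.

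The lower side held Irgc1, Negr1 and H3f3b. Irgc1, an immunity-related GTPase family member, was at 7.78 and 6.91 in controls and 6.15 and 4.71 after 1 week. Negr1, a neuronal cell adhesion protein, was at 6.18 and 6.01 against 4.25 and 4.85. The probe set named H3f3b, for the replacement histone H3.3, was at 8.51 and 7.75 against 6.99 and 6.71. The groups did not overlap in any of the 3, and for Irgc1 the sexes within a group differed by less than the groups. Each rests on 1 probe set.

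**Figure D2:**
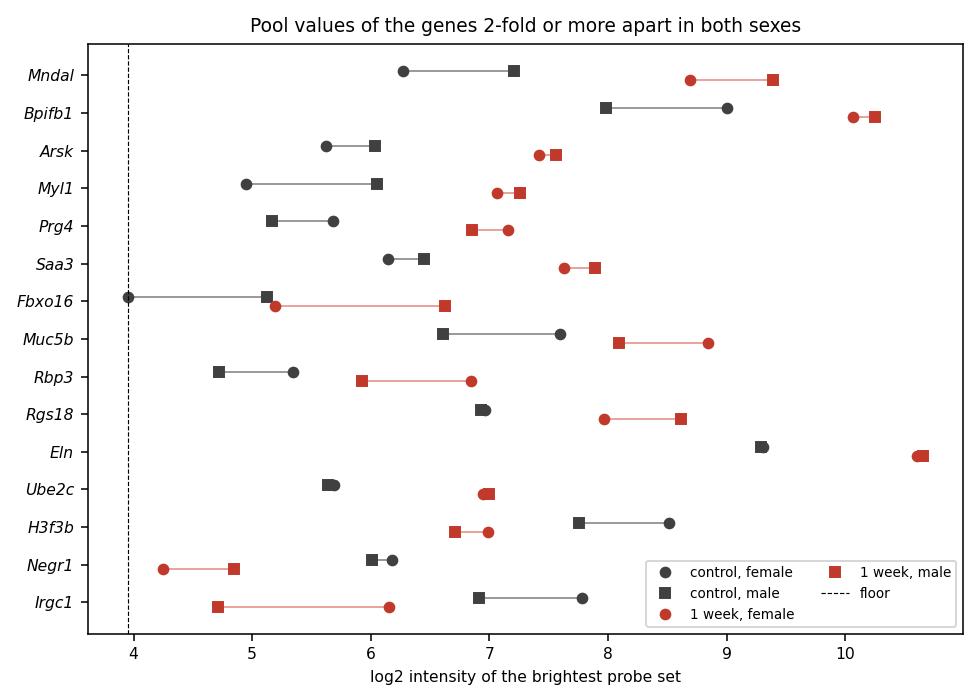
Log2 intensity of the brightest probe set in each of the 4 pools for the 15 genes with 2-fold or larger differences in both sexes, controls in grey and 1 week pools in red, circles for female and squares for male pools. Lines join the pools of a group, and the dashed line marks the floor at 3.95. The Eln pools lie at 9.31 and 9.29 in controls and 10.60 and 10.66 after 1 week.

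Genes with several probe sets give a reading of how far different probe sets for a transcript concur. Some have suffixed names, and whether they share probes was not tested, so they are not counted as independent. The 12 genes ranked highest by their next-to-largest probe set were Eln, Rgs18, Igf1, Tmem40, Bpifb1, Sfrp1, Fmod, Ccdc80, Upk3b, Rrm2, Sh3bgrl2 and Arsk. All 34 of their probe sets had positive differences, and 28 had both 1 week pools above both controls. The choice used the differences, so these counts describe the genes and test nothing. Igf1, the growth factor IGF-1, was above both controls on 4 of 4 probe sets, with differences from 0.83 to 0.94 and pools at 7.20 and 7.57 against 8.12 and 8.44 on the brightest. Fmod, the collagen-binding proteoglycan fibromodulin, had 6 probe sets with differences from 0.45 to 0.70. Sfrp1, a secreted Wnt inhibitor, ranged from 0.44 to 0.95 on 4 probe sets, with 6.82 and 7.35 in controls and 7.30 and 7.73 after 1 week on the brightest. Its brightest probe set differed least.

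Ccdc80, a secreted matrix protein, was at 8.76 and 9.03 in controls and 9.28 and 9.66 after 1 week. Upk3b, a uroplakin of mesothelium, was at 8.38 and 9.53 against 9.48 and 10.10, so that the 1 week female pool lay below the male control and the groups overlapped. Rrm2, the regulated subunit of ribonucleotide reductase, was at 6.74 and 6.82 against 7.25 and 7.65, with all 3 probe sets above both controls. Tmem40 stood at 5.84 and 6.10 against 6.49 and 7.03, and Sh3bgrl2, a small thioredoxin-like protein, at 6.11 and 6.42 against 6.81 and 7.57. Both had their groups apart on every probe set.

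On the lower side the probe sets of a gene disagreed more. The 12 genes were Rbm39, Cntn1, Malat1, Tpp2, Mmrn2, Gle1, Mast4, Git2, Krit1, Klhl24, Erbin and Ceacam1. They had 62 probe sets, of which 58 had negative differences and 27 lay below both controls. The ranking used only the next-to-largest probe set in that direction, so a gene with many could enter while the rest differed little. The contrast with the higher genes therefore tests nothing. For 10 of the 12 the brightest probe set differed by less than 0.25. Rbm39, an RNA-binding splicing factor, had 12 probe sets ranging from -1.04 to 0.27, and its brightest was at 10.32 and 10.14 against 10.31 and 9.99. The long non-coding RNA Malat1 ranged from -1.02 to 0.11 over 7 probe sets, and its brightest was at 12.34 and 11.79 against 12.14 and 11.89. The brightest readings of these transcripts were thus close to those of the controls while dimmer probe sets were lower; what the probe sets match was not tested.

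The exceptions were Mmrn2 and Cntn1. Mmrn2, an endothelial matrix protein that binds VEGF, was below both controls on 4 of 4 probe sets, with differences from -0.74 to -0.57 and pools at 10.40 and 9.98 against 9.71 and 9.27 on the brightest. Cntn1, a contactin of nerve cells, was at 6.77 and 6.76 against 5.89 and 5.75 on its brighter probe set. Both 1 week pools were below both controls for these genes. Among the remaining genes with a single probe set, Spon2, a secreted matrix protein, was at 5.25 and 4.79 against 6.22 and 6.69. Slc6a20a, an amino acid transporter, was at 7.32 and 7.30 against 6.51 and 6.34, and Zfp458, Mpp4 and Padi6 had differences of -1.09, -0.97 and -0.91. Ankrd63 had -1.14, with overlapping pools.

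**Figure D3:**
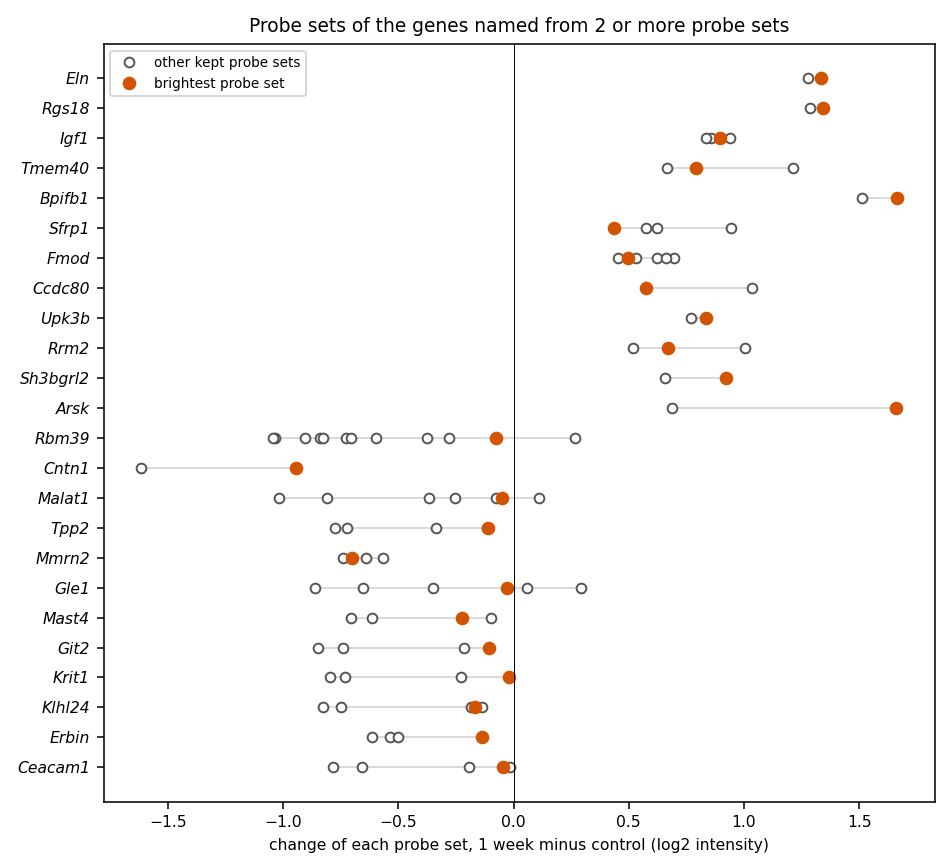
Difference between 1 week and control (log2 intensity, limma estimate) for every kept probe set of the genes named from 2 or more probe sets, the brightest probe set of a gene filled. In the upper 12 genes all 34 probe sets lie above 0, and in 10 of the lower 12 the brightest probe set lies within 0.25 of it.

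The BMP receptors themselves were close to control levels. None of the 8 measured receptor genes had its groups apart on the brightest probe set. Bmpr2 was at 11.99 and 12.15 in controls and 11.85 and 12.14 after 1 week (-0.08 ± 0.14; adjusted p 0.995 by limma with Benjamini-Hochberg). Both of its dimmer probe sets lay below both controls, with differences of -0.44 and -0.22. Whether any of these probes also detect the transgene is not given in the sources used here. Bmpr1a, Acvr1, Acvrl1 and Bmpr1b, the type I receptors, had -0.04, 0.06, -0.02 and 0.45. For the further type II receptors Acvr2a and Acvr2b and the co-receptor Eng the differences were 0.02, -0.11 and -0.12. The median of the 8 was -0.03, and above 0 at 0.03 when arrays were centred on their medians.

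Signalling Smads, which carry the signal to the nucleus, differed by at most 0.20 on their brightest probe sets. Smad1, Smad5 and the common partner Smad4 differed by -0.20, 0.01 and -0.18, Smad2 and Smad3 of the TGF-beta branch by -0.02 and 0.03, and Smurf1 and Smurf2, which target receptors and Smads for degradation, by -0.01 and -0.05. In this list 1 of 9 genes lay below both controls, the co-repressor Ski at 9.84 and 9.94 against 9.70 and 9.75. Its dimmer probe set had both 1 week pools above both controls, with a difference of 0.09. Its relative Skil differed by 0.05. Over all 20 probe sets of the list 6 lay below both controls and 1 above, with no share over all probe sets counted. Those below included a dimmer one of Smad3 at -0.34 and 2 of the 3 of Smurf2 at -0.61 and -0.22.

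BMP target genes were more often lower than higher in both sexes, 9 against 2 of 14, where 21.1% of all genes were lower and 32.6% higher in both. On the brightest probe set only Id1 had both 1 week pools below both controls. Over all 21 probe sets of the list 3 lay below both controls and 1 above, with no share over all probe sets counted. Those below included a dimmer probe set of Id2 and the dimmer one of Smad7, the latter at -0.17. Id1, an inhibitor of differentiation induced directly by BMP Smads, was at 11.07 and 11.05 against 11.04 and 10.69 (-0.20 ± 0.15). The female pools were almost level and the male pools apart. Id2, Id3 and Id4 differed by -0.20, -0.08 and -0.12. Smad6 and Smad7, the inhibitory Smads that damp the pathway, stood at 10.67 and 10.40 against 10.51 and 9.91 and at 10.27 and 10.76 against 10.01 and 10.51, lower in both sexes with overlapping groups. Hey1, Hey2, Slc39a8, Stc1 and Smad9 had -0.05, -0.60, -0.33, -0.16 and -0.11.

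Bambi, a decoy receptor, and the peptide Apln differed by 0.06 and 0.20. Atoh8, a transcription factor, was the member above both controls, at 5.89 and 4.92 against 6.25 and 6.25. It was dim, and its male control was lower than its female control by more than the female difference. The list median was -0.14, -0.06 in the female and -0.21 in the male pools, beside 0.03 over all genes. It lay between -0.25 without the 1 week female pool and -0.075 without the male control.

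Among ligands and antagonists, 2 of 16 (12.5%) were above both controls and 1 (6.25%) below. These shares were no larger than the 15.1% and 7.79% of all genes. Fstl1, a secreted follistatin-like glycoprotein, was at 10.36 and 10.18 against 10.69 and 10.72, and the DAN family antagonist Nbl1 at 8.78 and 8.77 against 9.09 and 9.05. The antagonist Chrdl1 was the lower member, at 8.55 and 8.77 against 8.38 and 8.46. The ligands Bmp2, Bmp4, Bmp5, Bmp6 and Bmp7 differed by -0.06, -0.12, -0.05, -0.15 and 0.07, all with overlapping groups. In the related TGF-beta system 4 of 14 were higher and 1 lower. Tgfb3, a TGF-beta ligand, was at 8.12 and 8.04 against 8.54 and 8.74, with both 1 week pools above the controls. Inhbb, an activin subunit, was at 8.16 and 7.69 against 8.46 and 8.34, and Ltbp2, a latent TGF-beta binding protein, at 9.26 and 9.22 against 9.38 and 9.74. The dimmer probe set of Inhbb had overlapping groups, with a difference of 0.04.

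Smooth muscle contractile genes are expressed in the cells where the SM22 promoter is mainly active. They were above both controls for 8 of 19 and below for 1, beside 15.1% and 7.79% of all genes. Actg2, the gamma smooth muscle actin, was at 9.20 and 9.24 in controls and 9.90 and 9.97 after 1 week (0.72 ± 0.13). Tpm1, a tropomyosin, was at 10.43 and 10.41 against 10.91 and 10.85, and Cnn1, the actin-binding protein calponin, at 9.68 and 9.41 against 10.11 and 9.84. In these 3 genes the female and male differences were nearly alike, 0.71 and 0.73 for Actg2, 0.47 and 0.44 for Tpm1 and 0.43 and 0.43 for Cnn1. Only the brightest of the 3 Tpm1 probe sets had its groups apart, and the lowest differed by -0.38 with overlapping groups. Speg, a muscle kinase, was at 6.59 and 6.10 against 6.94 and 7.14, with most of its difference in males.

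Other defining genes differed less. Acta2, alpha smooth muscle actin, was at 11.99 and 11.79 against 12.10 and 12.11, Myh11, the smooth muscle myosin heavy chain, at 10.18 and 9.84 against 10.19 and 10.35, and Tagln, whose promoter drives the transactivator, at 11.34 and 11.05 against 11.48 and 11.31. The 1 week pools of Acta2 and Myh11 were above both controls, Myh11 narrowly in females, and those of Tagln overlapped. Myocd, the coactivator of the contractile programme, differed by -0.34 with overlapping groups. Ppp1r12b, a myosin phosphatase subunit, was the lower member, at 9.65 and 9.65 against 9.52 and 9.52. The median was 0.21, 0.05 in the female and 0.34 in the male pools; leaving out the 1 week male pool gave 0.08, the male control 0.09 and the female control 0.31, and it was 0.10 when probe sets with suffixed names were left out. The estimates at 8 weeks in the same fit had a median of -0.43, with -0.63 for Actg2, -0.49 for Tpm1 and -1.51 for Myh11. In whole-lung RNA, more or fewer cells of a type cannot be told apart from more or less RNA per cell.

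Heart muscle transcripts were also higher, mainly in males. Of 30 cardiac muscle genes 10 were above both controls and 0 below, with a median of 0.24, -0.01 in the female and 0.50 in the male pools. Their summed intensity was 19890 (female) and 19588 (male) in controls, against 22188 and 28164 after 1 week. Myl7, an atrial myosin light chain, was at 10.69 and 10.46 against 11.02 and 11.43, and the calcium pump regulator Sln at 9.25 and 9.48 against 9.97 and 10.01. The summed smooth muscle genes were 25546 (female) and 24414 (male) in controls, against 27345 and 28130 after 1 week. Only the natriuretic peptide Nppa of the cardiac list was at the floor, in both female pools. The cardiac median was -0.18 without the male control. The part of heart tissue in the smooth muscle values was not tested; Pln belongs to both lists and differed by -0.06.

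**Figure D4:**
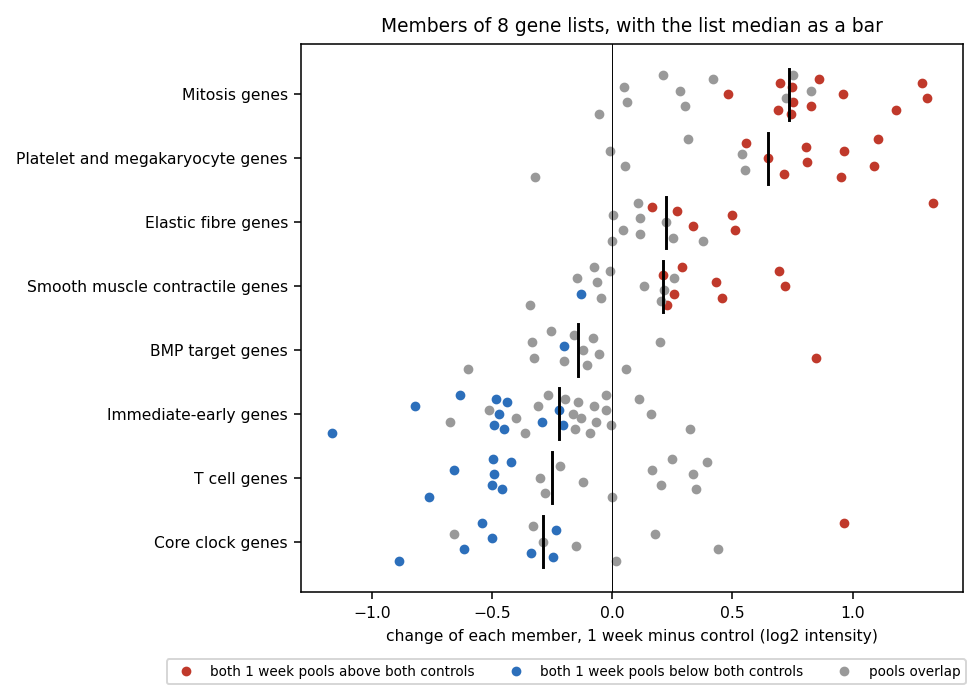
Difference between 1 week and control (log2 intensity, limma estimate) of each measured member of 8 gene lists; red members have both 1 week pools above both controls, blue ones both below, grey ones overlap, and black bars are list medians. Mitosis and platelet genes lie mostly to the right of 0 and core clock genes mostly to the left.

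Elastic fibre genes were above both controls for 6 of 15 and below for 0. Beside Eln, these were Fbln1, Loxl1, Mfap5, Mfap2 and Fbn2. Loxl1, a lysyl oxidase that cross-links elastin, was at 10.88 and 10.43 against 11.18 and 11.12. Mfap5 and Mfap2, microfibril glycoproteins, were at 9.68 and 9.95 against 10.08 and 10.23 and at 8.41 and 8.55 against 8.70 and 8.80. Fbln1, a fibulin of elastic fibres, was at 8.59 and 8.17 against 8.79 and 8.99, with the larger difference in males. None of the 15 had negative differences in both sexes, and the median was 0.22, 0.11 in the female and 0.27 in the male pools. Both probe sets of Eln stood apart, with 1.33 and 1.28. Efemp1 and Fbln5 differed by 0.0023 and 0.04, with overlapping groups.

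Collagens include the fibril-forming chains of connective tissue and those of basement membrane. Of the collagen genes 10 of 19 were above both controls and 2 below. Col15a1, a collagen beside basement membranes, was at 6.27 and 6.07 in controls and 7.12 and 7.37 after 1 week (1.08 ± 0.18). Col1a1 and Col1a2, the chains of type I collagen, were at 9.77 and 9.12 against 10.09 and 10.30 and at 11.21 and 11.21 against 11.46 and 11.65. Col14a1, which associates with fibrils, was at 8.81 and 8.77 against 9.18 and 9.37. In each of these the 1 week pools were above both controls, with the larger difference in males. A dimmer probe set of Col1a2 lay below both controls, with a difference of -0.46. The basement membrane chains Col4a3 and Col4a4 were the lower members, at 9.42 and 9.42 against 9.17 and 9.18 and at 10.46 and 10.35 against 10.24 and 10.30. The list median was 0.13, 0.04 in the female and 0.20 in the male pools; it was 0.093 without the 1 week male pool, 0.22 without the 1 week female pool and 0.23 without the female control.

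Proteoglycans and injury-associated matrix genes were above both controls for 10 of 23 and below for 0, with a median of 0.06 that was 0.12 without the male control, 0.17 without the 1 week female pool and 0.095 without the 1 week male pool. Lum, the collagen-binding proteoglycan lumican, was at 6.82 and 6.87 against 7.59 and 7.84 (0.87 ± 0.14), and Aspn, its relative asporin, at 9.52 and 9.61 against 9.87 and 10.04. Vcan, the proteoglycan versican, was at 6.37 and 5.78 against 6.78 and 6.57. Tnc, the injury glycoprotein tenascin C, was at 7.81 and 6.55 against 7.90 and 8.13, a difference almost wholly in males, whose control was the lowest pool. Timp1, a metalloproteinase inhibitor, was at 6.81 and 6.84 against 7.20 and 7.82, and had an estimate of 2.34 at 8 weeks. Bgn, Dcn and Sparcl1, abundant in lung stroma, differed by -0.0001, 0.06 and -0.05.

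Markers of pleural and fat cells are given beside the matrix genes. Mesothelial genes had a median of 0.18, 0.31 in the female and 0.10 in the male pools, and none of 14 had its groups apart; the median was 0.069 without the female control and 0.36 without the male control. Their male control exceeded their female control by a median of 1.05, and their summed intensity was 9507 (female) and 11320 (male) in controls, against 10971 and 12749 after 1 week. Adipose genes were above both controls for 6 of 13 and below for 1, with 0.61 in the female and 0.05 in the male pools; the summed intensity was 8952 (female) and 9999 (male) in controls, against 13169 and 10023 after 1 week. The fat hormone Adipoq was at 7.02 and 7.24 against 8.31 and 7.48. No member of either list was at the floor. The part of pleural or fat tissue in the matrix values was not tested.

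Mitosis genes had a list median of 0.73 (0.49 in the female and 0.88 in the male pools), beside 0.03 over all genes. Of 22 measured, 12 were above both controls, 0 below both, and 17 had positive differences in both sexes, as had 32.6% of all genes. Cdk1, the kinase that drives entry into mitosis, was at 6.14 and 6.04 in controls and 7.04 and 7.72 after 1 week (1.29 ± 0.23). Top2a, a topoisomerase of dividing cells, was at 5.83 and 5.68 against 6.57 and 7.29 (1.18 ± 0.24). Mki67, the proliferation antigen Ki-67, was at 6.64 and 6.29 against 7.15 and 7.70. For these 3 genes the controls lay within 0.35 of each other and the male difference was the larger.

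Prc1, a protein of the central spindle, was at 5.61 and 6.10 against 6.70 and 6.66, with the larger difference in females. Nusap1 and Plk1, a spindle protein and a mitotic kinase, were at 5.18 and 5.47 against 5.83 and 6.32 and at 5.73 and 5.32 against 6.33 and 6.22. The members with overlapping groups included Cdca8 at 5.41 and 5.40 against 7.84 and 4.63, whose sexes differed in opposite directions, and Bub1b and Cenpa at -0.05 and 0.05. Mitosis genes were dim, with median control levels of 5.78 and 5.86, and their summed intensity was 1582 (female) and 1610 (male) in controls, against 2277 and 2756 after 1 week. The median was 0.46 without the male control and 0.80 without the 1 week female pool.

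DNA replication genes were above both controls for 8 of 25 and below for 1, with a median of 0.21 (0.02 in the female and 0.36 in the male pools). Mcm6, a subunit of the replicative helicase, was at 7.76 and 7.46 against 8.32 and 8.31, and Mcm3, of the same complex, at 6.67 and 6.92 against 6.99 and 7.58. Cdc45, which works with that helicase, was the lower member, at 5.86 and 6.10 against 5.07 and 5.60. Leaving out the 1 week male pool gave a median of 0.083, and leaving out the 1 week female pool 0.43.

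Many promoters of late cell cycle genes hold the CHR element, the bases TTTGAA or TTCAAA on the opposite strand, through which they are silenced outside the cell cycle. It occurred in the window from 250 bases before to 50 after the start in 17 of the 20 mitosis genes with a promoter sequence (85%). It was found in 14.4% of the 10637 measured genes that had one and in 17.9% of all 32851 promoter windows. Among mitosis genes, 8 of 11 genes above both controls and 9 of 9 with overlapping groups held it. The 3 mitosis genes with the largest separated differences are shown because each carries the element close to its start (RefSeq, GRCm38.p6), in capitals:
Ube2c (chr2:164769679-164769978, plus strand): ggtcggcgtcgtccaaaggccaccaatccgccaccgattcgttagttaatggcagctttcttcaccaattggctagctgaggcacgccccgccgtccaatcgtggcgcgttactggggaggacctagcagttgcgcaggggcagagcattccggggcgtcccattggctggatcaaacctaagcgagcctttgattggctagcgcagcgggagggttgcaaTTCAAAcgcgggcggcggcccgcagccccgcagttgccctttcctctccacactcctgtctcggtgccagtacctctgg
Cdk1 (chr10:69352863-69353162, minus strand): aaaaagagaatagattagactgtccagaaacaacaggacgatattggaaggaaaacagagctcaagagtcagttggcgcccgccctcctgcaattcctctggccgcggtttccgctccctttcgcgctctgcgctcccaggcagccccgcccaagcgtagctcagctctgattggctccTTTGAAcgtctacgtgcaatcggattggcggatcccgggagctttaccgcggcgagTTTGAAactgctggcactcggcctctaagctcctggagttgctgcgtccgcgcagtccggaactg
Top2a (chr11:99024140-99024439, minus strand): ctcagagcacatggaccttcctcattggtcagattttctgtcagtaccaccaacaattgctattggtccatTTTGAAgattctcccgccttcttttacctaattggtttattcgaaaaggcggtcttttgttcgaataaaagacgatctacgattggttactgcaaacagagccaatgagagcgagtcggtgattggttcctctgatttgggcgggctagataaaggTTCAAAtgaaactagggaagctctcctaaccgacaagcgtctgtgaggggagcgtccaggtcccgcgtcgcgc
Ube2c holds 1 match, and Cdk1 and Top2a hold 2 each. A match describes the letters in this window.

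Platelet and megakaryocyte genes were above both controls for 9 of 15 and below for 0, with a median of 0.65 (0.32 in the female and 0.91 in the male pools). Clec1b, the platelet receptor CLEC-2, was at 7.49 and 7.51 in controls and 8.37 and 8.84 after 1 week (1.11 ± 0.23). Gp9, a subunit of the von Willebrand factor receptor, was at 5.71 and 6.18 against 6.63 and 7.44. The chemokines of platelet granules, Pf4 and Ppbp, were at 9.62 and 9.90 against 10.15 and 10.81 and at 8.89 and 9.28 against 9.63 and 10.17. All 4 had both 1 week pools above both controls, the male pool furthest. Itga2b, a chain of the fibrinogen receptor, was at 8.60 and 8.21 against 8.96 and 9.46, and Tubb1, the platelet tubulin, at 7.74 and 7.52 against 8.22 and 8.94.

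Vwf, which endothelium makes too, was the most negative platelet list member, at 11.51 and 11.03 against 11.06 and 10.85. Thbs1 and the receptor F2rl2 differed by 0.06 and -0.01. The list median was 0.45 in the absence of either male pool and 1.04 without the 1 week female pool, so its size depended on which pools were kept. At 8 weeks the estimates had a median of -0.07, with -0.0027 for Clec1b and 0.02 for Gp9.

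Of the 4 erythroid genes measured, 3 were above both controls and all 4 positive in both sexes. With no filter on dim probe sets 3 of 9 were above both controls, with a median of 0.34 where the 4 had 0.97. Over the 4, leaving out the female control gave 0.51 and leaving out the male control 1.38. Alas2, the haem synthesis enzyme of red cell precursors, was at 9.37 and 9.81 against 10.68 and 10.60 (1.05 ± 0.21), and Slc4a1, the red cell anion exchanger, at 5.11 and 5.94 against 6.61 and 6.26. Hbb-b2, a beta globin, was at 6.59 and 8.27 against 8.02 and 8.88, its male control above the 1 week female pool. The erythroid median was 1.37 in the female and 0.49 in the male pools, and the summed intensity was 851 (female) and 1357 (male) in controls, against 2095 and 2217 after 1 week. Summed platelet genes were 6667 (female) and 5799 (male) in controls, against 7300 and 9123 after 1 week. The amount of blood left in each lung was not tested.

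Airway epithelium holds ciliated cells, which move mucus, and secretory cells, which make it. Ciliated cell genes were above both controls for 11 of 21 and below for 0, with a median of 0.33 (0.12 in the female and 0.53 in the male pools). Foxj1, the regulator of motile cilia, was at 8.03 and 7.50 against 8.34 and 8.33, and Spag6l, an axoneme protein, at 7.01 and 6.11 against 7.45 and 7.03 (0.69 ± 0.17). Mns1, a protein of cilia, was at 7.07 and 6.62 against 7.36 and 7.13. In each of these both 1 week pools were above both controls, and the male control was the lowest pool. Over the list the male control lay 0.52 below the female control by the median, and without it the list median was 0.07. The summed intensity was 13037 (female) and 11292 (male) in controls, against 13814 and 13371 after 1 week. At 8 weeks the median estimate was -0.56.

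Secretory airway genes were above both controls for 7 of 13 and below for 0 (0.12 in the female and 0.80 in the male pools). Scgb3a1, a secretoglobin of upper airways, was at 11.57 and 11.04 against 11.90 and 11.92, Bpifa1, a secreted defence protein, at 9.34 and 9.78 against 9.78 and 10.92, and Reg3g, an antibacterial lectin, at 7.44 and 7.11 against 7.79 and 9.77. The standard errors were large for these genes, 1.11, 1.58 and 1.05; the 8 week pools enter that spread. The most abundant members were Scgb1a1, Cyp2f2 and Cbr2. Scgb1a1 held the same rank on every array, so quantile normalization sets its difference to 0.000 and it shows nothing about change. Cyp2f2 and Cbr2 differed by 0.03 and -0.05. The median without the male control was below 0.01. How much large airway each lung sample held was not tested.

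Alveolar type 1 genes had small differences, with estimates from -0.21 to 0.02, and the type 2 medians lay on opposite sides of 0 in the sexes. Of 14 alveolar type 1 genes 3 were below both controls, Clic5, Aqp5 and Vegfa, and 0 above; Aqp5, a water channel, was at 11.44 and 11.36 against 11.29 and 11.34. The median was -0.07. In both sexes 8 of the 14 were lower and 0 higher, beside 21.1% and 32.6% of all genes. The 3 below both controls were 21.4% of the list, beside 7.79% of all genes, and numbered 6 in the values as deposited. Alveolar type 2 genes had 1 of 15 above both controls, the surfactant protein gene Sftpd at 12.09 and 12.12 against 12.35 and 12.17, and 0 below. Their median was 0.03, with 0.21 in the female and -0.12 in the male pools.

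Core clock genes were below both controls for 7 of 15 and above for 1, beside 7.79% and 15.1% of all genes, with a median of -0.29 (-0.26 in the female and -0.32 in the male pools). Ciart, a repressor of the clock, was at 7.66 and 7.60 in controls and 7.05 and 6.44 after 1 week (-0.89 ± 0.20). Bhlhe40, another repressor, was at 9.87 and 9.49 against 9.25 and 9.03 (-0.54 ± 0.13). Per2 and Per3, period proteins of the repressing arm, were at 7.91 and 8.86 against 7.68 and 7.86 and at 9.21 and 8.95 against 8.86 and 8.30. All 4 had both 1 week pools below both controls. Arntl, which encodes the activator BMAL1 and cycles in the opposite phase to Per and Dbp, was at 5.24 and 4.96 against 5.74 and 6.40, above both controls. Clock, its partner, differed by 0.18 with overlapping pools.

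Among clock output genes 5 of 12 were below both controls and 2 above. Dbp, a transcription factor with a strong daily rhythm, was at 10.96 and 10.86 against 10.32 and 9.89, and its relatives Tef and Hlf at 10.85 and 10.91 against 10.55 and 10.45 and at 9.27 and 8.86 against 8.39 and 8.52. Nfil3, a repressor that cycles opposite to Dbp, was at 5.69 and 5.16 against 5.78 and 6.06. The 5 lower genes were Dbp, Hlf, Usp2, Tspan4 and Tef, and the 2 higher were Nfil3 and Leo1. Summed core clock intensity was 9700 (female) and 9509 (male) in controls, against 8164 and 7730 after 1 week. The hour at which each lung was taken is not given in the sources used here, and its part in these values was not tested. The core clock median stayed between -0.37 and -0.16 with any 1 pool left out.

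The E-box CACGTG is the site at which CLOCK and BMAL1 drive their targets. It was present in 4 of the 12 core clock genes with a promoter sequence, in 4 of 11 output genes and in 11.2% of measured genes. Of the core clock genes below both controls, 1 of 5 held it in this window. That gene is Ciart, with 3 copies; its promoter is shown because Ciart had the most negative difference of the list (RefSeq, GRCm38.p6), E-boxes in capitals:
Ciart (chr3:95882179-95882478, minus strand): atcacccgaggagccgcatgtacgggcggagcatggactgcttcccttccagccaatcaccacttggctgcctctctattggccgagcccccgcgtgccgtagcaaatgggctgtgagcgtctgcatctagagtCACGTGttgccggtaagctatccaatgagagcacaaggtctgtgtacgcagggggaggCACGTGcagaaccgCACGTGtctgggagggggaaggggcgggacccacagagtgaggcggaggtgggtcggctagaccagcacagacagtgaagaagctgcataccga
The 3 matches describe the letters in this window.

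Immediate-early genes, which switch on within minutes of stimulation, were below both controls for 11 of 31 and above for 0, and 20 had negative differences in both sexes, as had 21.1% of all genes. Atf3, a stress transcription factor, was at 9.41 and 7.78 against 7.43 and 7.43. Egr1 and Junb were at 12.06 and 11.50 against 10.59 and 11.33 and at 10.40 and 10.15 against 9.53 and 9.76, and Myc, the growth regulator, at 6.46 and 6.19 against 5.86 and 5.80. In Atf3 and Egr1 the female control was the highest pool by a wide margin, and the male difference was small. The median was -0.22 (-0.48 in the female and -0.13 in the male pools), and -0.08 without the female control. Summed intensity was 47255 (female) and 40586 (male) in controls, against 36150 and 36573 after 1 week. Freezing soon after death is recorded for the transgenic lungs and not for the controls, and the part of tissue handling in these values was not tested. The cAMP response element TGACGTCA occurred in 3 of the 24 genes with a promoter sequence (12.5%), beside 3.28% of measured genes, and in 0 of the 8 that were below both controls.

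Glucocorticoid-responsive genes were below both controls for 5 of 17 and above for 1. Errfi1, an inhibitor of EGF receptors, was at 11.14 and 10.82 against 10.76 and 10.33, and Ddit4, an mTOR inhibitor, at 10.04 and 9.92 against 9.77 and 9.38. Pdk4, a kinase that limits glucose oxidation, was the higher gene, at 7.90 and 8.14 against 8.97 and 8.45. Fkbp5, a strongly steroid-induced chaperone, was at 7.21 and 7.98 against 8.46 and 7.52, its sexes differing in opposite directions.

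T cell genes were below both controls for 7 of 18 and above for 0, with a median of -0.25 (-0.45 in the female and -0.02 in the male pools). Cd5, a surface receptor of T cells, was at 6.17 and 5.80 against 5.41 and 5.25 (-0.66 ± 0.14). Cd3g, a chain of the T cell receptor complex, was at 8.41 and 7.85 against 7.78 and 7.50, and Il7r, the IL-7 receptor, at 8.83 and 8.54 against 8.46 and 7.99. These 3 were lower in both sexes. Cd3e, Cd3d and Cd8a, equally defining, were at 7.96 and 7.14 against 7.35 and 7.15, 8.55 and 7.55 against 7.87 and 7.66 and 5.25 and 6.67 against 5.92 and 6.41, with overlapping groups. The female control was the highest pool for most members, and the list median was -0.05 without the 1 week female pool. Summed intensity was 3390 (female) and 2623 (male) in controls, against 2703 and 2613 after 1 week.

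Macrophage genes had medians of 0.56 in the female and -0.13 in the male pools. Of 23 alveolar macrophage and monocyte genes 6 were above both controls and 0 below. C1qa, C1qb and C1qc, the subunits of complement C1q, were at 9.42 and 9.60 against 9.96 and 9.93, 7.91 and 8.24 against 8.61 and 8.33 and 8.46 and 8.41 against 9.06 and 8.64. Ctsk, a lysosomal protease, was at 7.42 and 7.05 against 7.83 and 7.58. Those 4 genes had both 1 week pools above both controls. Chil3, a chitinase-like secretory protein of macrophages, was at 6.51 and 9.15 against 9.96 and 8.60, higher in females and lower in males. The list median was 0.23, and -0.12 without the female control.

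Complement and acute phase genes were above both controls for 7 of 19 and below for 0. C5ar1, the C5a receptor of myeloid cells, was at 6.05 and 6.03 against 6.82 and 7.42 (1.08 ± 0.19), and Cp, the ferroxidase ceruloplasmin, at 9.90 and 9.62 against 10.16 and 10.44. The dimmer probe set of C5ar1 had overlapping groups, with a difference of 0.22. Cfp, the complement activator properdin, was at 6.56 and 6.34 against 6.85 and 7.03 on its brighter probe set, whereas the dimmer lay below both controls with a difference of -0.55. Neutrophil genes had 2 of 15 (13.3%) above both controls, beside 15.1% of all genes, and 0 below. Their median was 0.16, beside 1.42 at 8 weeks.

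The interferon-inducible p200 family, cytosolic and nuclear DNA sensors encoded in a cluster of near-identical genes, held large differences in both directions. Mndal had a probe set at the floor in both controls that read 7.69 and 8.75 after 1 week, so its differences, 3.74 and 4.80, are lower bounds. Its brighter probe set was at 6.27 and 7.21 against 8.69 and 9.39 (2.30 ± 0.14; adjusted p 0.57 by limma with Benjamini-Hochberg). Ifi213 was at 6.19 and 6.15 against 7.19 and 7.13, with controls and 1 week pools each within 0.06. Ifi209 was at 4.78 and 4.24 against 7.18 and 7.80 on the dimmer probe set but at 7.28 and 7.23 against 7.28 and 6.94 on the brighter.

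Ifi204 went the other way, at 6.81 and 7.26 against 6.17 and 5.21. Ifi202b, Ifi203 and Ifi207 differed by -0.80, 0.59 and 0.14 with overlapping groups. Signal from another family member on these probes was not tested. At 8 weeks the brighter Mndal probe set had an estimate of 2.61 and Ifi213 one of 1.11. Among 26 other interferon-stimulated genes 6 were above both controls and 4 below. Ifi27l2a was at 9.54 and 9.42 against 10.14 and 10.04, and Ifih1, a cytosolic RNA sensor, at 8.55 and 8.69 against 8.48 and 8.34. Alox15, a lipoxygenase, also had both controls at the floor and read 5.40 and 4.94 after 1 week. Hcar2, a metabolite receptor, was at 4.04 and 4.84 in controls and at the floor after 1 week. Its female difference was -0.09, and both genes were dim in the pools compared, so no loss of Hcar2 is read from these values. At 8 weeks Alox15 was at 5.28 and 7.62 and Hcar2 at 6.67 and 7.50. The filter on dim probe sets used the mean over all arrays, so the 8 week values counted towards keeping both.

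Endothelial markers were below both controls for 2 of 21 (9.52%, beside 7.79% of all genes) and above for 0. Their median was -0.04, and 0.01 after centring on array medians. Gja4, an arterial gap junction protein, was at 10.37 and 10.08 against 9.88 and 9.99, and Tek, the angiopoietin receptor, at 11.15 and 11.11 against 10.98 and 10.99. Cdh5, Pecam1 and Cldn5, junction proteins of all endothelium, differed by -0.04, 0.07 and 0.01. Among VEGF and angiopoietin genes 3 of 13 were below both controls and 0 above; Vegfa was at 10.40 and 10.63 against 10.39 and 10.22, the male pools carrying the difference.

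Vasoactive mediator genes had 3 of 18 above both controls and 3 below (16.7% each), beside 15.1% and 7.79% of all genes. Slc6a4, the serotonin transporter, was at 5.49 and 5.95 against 6.10 and 6.58, and the serotonin receptor Htr2b at 5.35 and 4.80 against 5.61 and 5.45. Nos3, endothelial nitric oxide synthase, was at 7.82 and 7.94 against 8.26 and 8.09. The lower genes were Ptgir, the prostacyclin receptor, at 6.77 and 6.73 against 6.11 and 6.70, Edn1, endothelin 1, at 10.21 and 10.20 against 10.13 and 10.03, and Gucy1a1, a subunit of the nitric oxide receptor, at 11.40 and 11.47 against 11.32 and 11.31.

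The 1 week and the 8 week estimates use the same control pools, so their values are set side by side without a measure of likeness. Mitosis genes had medians of 0.73 at 1 week and 1.02 at 8 weeks, and elastic fibre genes 0.22 and 0.15. Cardiac muscle genes had 0.24 and -1.37, ciliated cell genes 0.33 and -0.56, secretory airway genes 0.30 and -0.22, and macrophage genes 0.23 and 1.07. Eln had estimates of 1.33 and 1.01, Saa3 of 1.46 and 4.09, and Bpifb1 of 1.67 and -2.09. Compared directly, the pools of the 2 durations differed at no probe set after adjustment (0 of 27022, 0%; limma with Benjamini-Hochberg), with a smallest adjusted p of 0.101. The difference itself uses no control pool, although the controls enter the estimate of spread. At an unadjusted p below 0.05 it counted 5000 probe sets, 2481 higher at 1 week and 2519 lower, where 1351.1 would be counted if no gene differed.

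**Figure D5:**
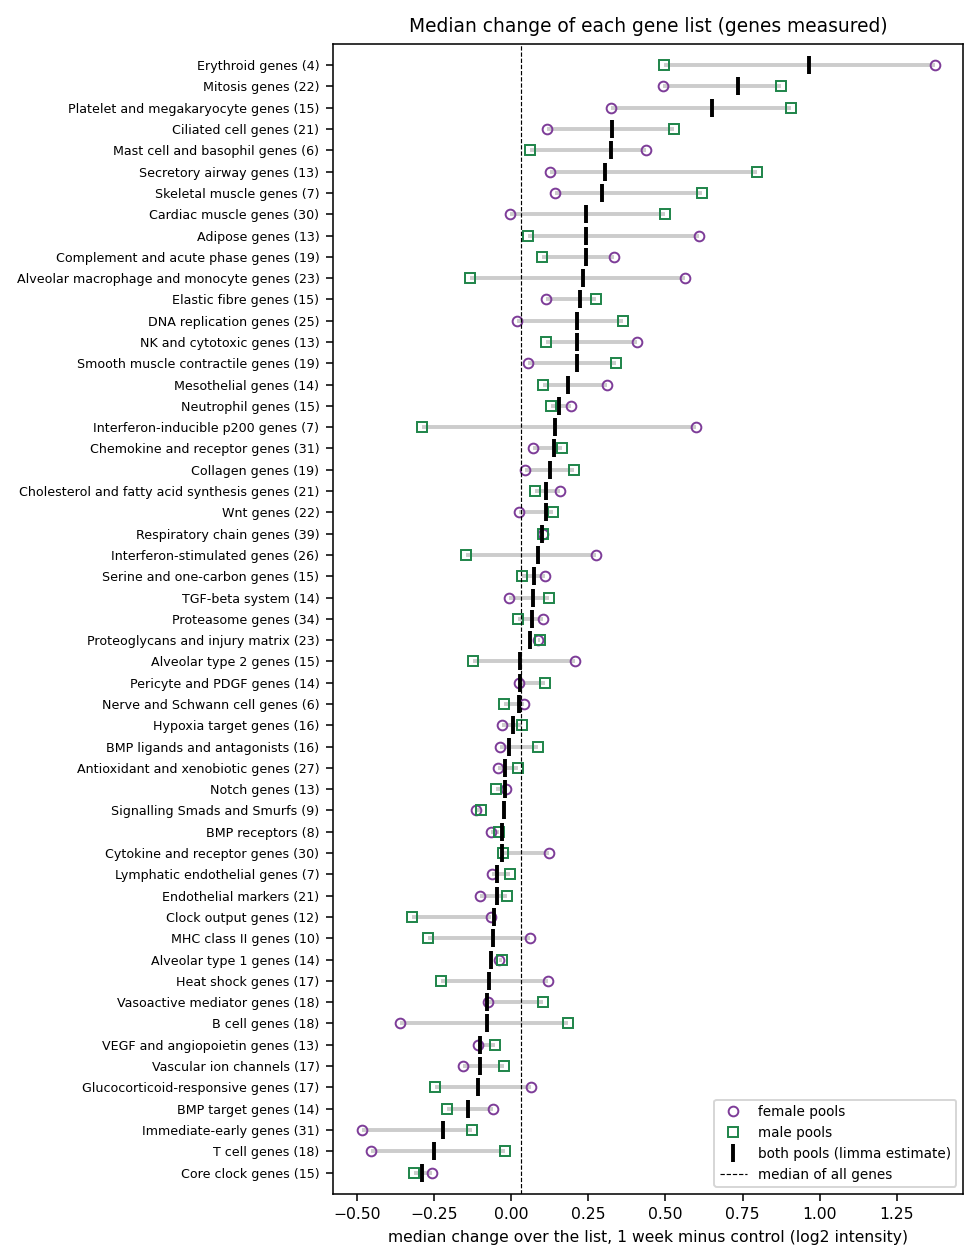
Median difference between 1 week and control (log2 intensity) over the measured genes of each list, number in brackets, in the female pools (circles), the male pools (squares) and the limma estimate (bars). The dashed line is the median over all genes, 0.03. Core clock, T cell and immediate-early genes lie at the lower end and erythroid, mitosis and platelet genes at the upper end.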

How the data were processed

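Whole-lung RNA pools of mice were hybridised to single-colour arrays, 1 array a pool. The deposited values are a table of linear intensities per probe set, from 10 to 11513.01; the authors' summarisation, scaling and lower limit are not given in the sources used here. Probe sets were named through the platform annotation supplied with GEO: of 45037, 34945 had 1 gene symbol, 932 several and 9160 none, and 34741 matched RefSeq.

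From the deposited intensities, the 6 arrays were put on a common distribution by quantile normalization; a floor was applied at the 20th percentile (15.5) before taking log2, and probe sets with a mean above the 40th percentile were kept (27022, giving 13215 genes). limma 3.58.1 in R 4.3.3 fitted group and sex over all 6 arrays, with Benjamini-Hochberg adjustment at 0.05. The fit was tested on simulated data. Array number, with 2 pools a group, limits precision.

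Members of the 54 gene lists and the lists themselves were chosen with earlier results of these data known. Genes were named by rule: the 12 highest and lowest with 2 or more probe sets by the next-to-largest difference shared by both sexes, the 8 highest and lowest with 1 probe set, up to 4 each way with a group at the floor, up to 4 non-overlapping members of a list, and BMP receptors, targets and Smads. Alternatives were the values as deposited, median centring, another floor, log2(value + 16), other filters, probe sets without suffixes, 1 value per gene, other variance models, no sex term, 4 arrays alone, and each pool left out. The contrast between durations was added after values had been seen. Promoter sequences are from RefSeq; figures were drawn with matplotlib 3.10.9.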

Additional observations from a re-analysis of the deposited data

Results flagged for a closer look

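For 6 gene lists the median difference between 1 week and control lay on opposite sides of 0 in the female and the male pools; with 1 pool of each sex in a group, the difference between sexes was not tested. Alveolar macrophage and monocyte genes had medians of 0.56 in females and -0.13 in males. Macrophage markers with the widest gap were Chil3, with differences of 3.45 and -0.55, Atp6v0d2, a proton pump subunit, with 1.39 and -1.15, and Siglecf, a lectin of alveolar macrophages, with 1.18 and -1.08. The male control exceeded the female control in all 3, at 9.15 against 6.51 for Chil3.

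The p200 genes had 0.60 and -0.29, and the interferon-stimulated genes 0.28 and -0.15. Alveolar type 2 genes had 0.21 and -0.12, with the aspartic protease Napsa at 0.48 and -0.63. B cell genes had -0.36 and 0.18. Heat shock genes had 0.12 and -0.23. In the controls, B cell genes were lower in the male than in the female pool by the median (-0.52), and macrophage genes were higher (0.40). What these differences between pools reflect was not tested.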

How the results depend on the processing

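The call of 0 probe sets held under the normalization, floor, pseudocount, filter and suffix alternatives, with the 4 arrays alone, with no moderation and without any 1 pool. It became 3 with a variance trend and robust moderation (2 probe sets of Mndal and 1 the annotation does not name) and 1 with 1 value per gene (Mndal, adjusted p 0.0372, limma). The count of genes above both controls was 1223, and below both 1742, in the values as deposited; leaving out a pool relaxes the criterion by construction and gave 4512 to 4852 and 2886 to 3879. Genes lower by 2-fold in both sexes, 3 in all, became 7 as deposited, 5 with no filter and 1 with log2(value + 16) or a filter at the 60th percentile; those higher, 12, became 20 with no filter. These counts have no value without a pool, since both sexes are needed. The core clock median was -0.33 as deposited, -0.24 after centring, -0.33 with the 60th percentile filter and -0.33 with 1 value per gene, and -0.37 to -0.16 with a pool left out. With a pool left out, BMP target genes had -0.25 to -0.075 and mitosis genes 0.46 to 0.80. The other medians of the 8 lists plotted by member stayed within the spread between sexes and kept their sign. For 216 named genes, 2088 of 2524 values moved by less than the standard deviation of the female and male differences. The sign was the other way for 71 values. Where not stated, the cause was not tested. The labels carry no shared replicate numbers; pools were matched by sex. The fit with sex as a term is the paired analysis, and without that term 0 probe sets were called. Signal over background limits dim probe sets, whose values were set to the floor.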

Other observations

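Genes of the mitochondrial respiratory chain were slightly higher in most members. Of 39 measured, 30 had positive differences in both sexes, as had 32.6% of all genes, 18 had both 1 week pools above both controls and 0 below, and the median was 0.10 (0.10 in the female and 0.10 in the male pools), beside 0.03 over all genes. Sdhc, a succinate dehydrogenase subunit, was at 9.55 and 9.40 in controls and 9.70 and 9.71 after 1 week, and Ndufs4, a subunit of complex I, at 9.47 and 9.39 against 9.70 and 9.54. All 39 estimates lay between 0.03 and 0.23. The count of genes above both controls was 11 in the values as deposited and 31 after centring on array medians.

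Cholesterol and fatty acid synthesis genes were above both controls for 8 of 21 and below for 0, with a median of 0.11 that was 0.0086 without the 1 week female pool and 0.17 without the 1 week male pool. In the values as deposited 6 were above and 2 below. With 1 value per gene 3 of 21 were above, where 1998 of all 13215 genes were, so the count depended on the processing. Elovl6, a fatty acid elongase, was at 6.29 and 5.99 against 7.05 and 6.48, Cyp51, a sterol demethylase, at 8.31 and 8.26 against 8.47 and 8.80, and Sqle, squalene epoxidase, at 8.84 and 8.76 against 9.10 and 9.18. Both 1 week pools were above both controls in these 3 genes.

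Phgdh, the entry enzyme of serine synthesis, read differently by probe set. One was at 4.65 and 5.38 in controls and 7.71 and 7.51 after 1 week, whereas the other 3 differed by 0.16, -0.01 and -0.02. At 8 weeks all 4 estimates were positive, 2.95 for the former and 1.18 for the highest of the others.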
